A study of Homo sapiens with 6 samples.

Results

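The genes described here encode alpha- and beta-tubulin. They are the 10 rows of the deposited expression table, of 60589 rows in all, whose symbol is TUBA1A, TUBA1B, TUBA1C, TUBA4A, TUBB, TUBB2A, TUBB2B, TUBB3, TUBB4B or TUBB6. They comprise 4 alpha and 6 beta genes. They were taken by name from the tubulin family and do not include every tubulin gene that the cells express. RNA came from SNU449 cells, a line established from a human hepatocellular carcinoma, collected on day 3 with a control siRNA (siControl, n = 3) or an siRNA against MAD2L1 (siMAD2L1, n = 3). MAD2L1 encodes a spindle assembly checkpoint protein. All 6 libraries are of this single line, and the labels give no siRNA sequence and do not say whether replicates are separate cultures, so a p-value here reflects only how these 6 libraries vary, which may be technical. The values are TPM (abundance scaled for gene length and to the same total in each library), so the read depth behind them is unknown.

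MAD2L1 measured 14.5, 13.7 and 13.9 TPM in siControl replicates 1 to 3 and 4.47, 0.795 and 2.40 TPM in siMAD2L1 replicates 1 to 3 (limma adjusted p = 0.0105, and 0.0597, 0.0547 and 0.0572 without siControl replicate 1, 2 or 3). The titles name MAD2L1 for all 3 knockdown libraries, but the treatment field names MAD2L2 for replicate 2 and MAD2L3 for replicate 3. MAD2L2 measured 123, 154 and 138 TPM in siMAD2L1, against 150, 146 and 138 TPM in siControl. The library siMAD2L1 replicate 1 stood apart from the others of its group on the second principal component (40 against -24.7 and -11.9), and it also kept the highest MAD2L1 level of the 3. Of 9 hepatocyte markers, 5 lay below a mean of 1 TPM, among them albumin (ALB, 0.365 ± 0.113 TPM, SD, n = 3, in siControl), and APOB and TTR were listed at 0 in every library, whereas vimentin (VIM) measured 9490 ± 443 TPM (SD, n = 3) in siControl. Of the 6 neuronal markers 4 lay below a mean of 1 TPM, with DCX listed at 0 throughout. The hepatocyte markers TF (8.83 ± 1.89 to 3.98 ± 0.477 TPM) and FGB (7.42 ± 1.13 to 2.77 ± 0.741 TPM; SD, n = 3 each) fell. These were 2 of the 4 tested, beside 6.23% lower over all genes tested. SERPINA1 (1.88 ± 0.228 and 1.72 ± 0.743 TPM) and AFP (1.46 ± 0.954 and 1.56 ± 1.22 TPM; SD, n = 3 each) did not pass. The list, mostly TF and FGB, summed to 17.8 to 23.5 TPM in siControl and 7.9 to 13.8 TPM in siMAD2L1. The keratins KRT8 (222 ± 6.13 to 163 ± 7.74 TPM) and KRT18 (194 ± 5.73 to 133 ± 9.14 TPM) fell and CD68 rose (65.8 ± 3.55 to 137 ± 11.0 TPM; SD, n = 3 each), whereas CD14 measured 7.5 ± 3.27 and 3.43 ± 0.871 TPM (SD, n = 3 each) without passing, PTPRC was at most 0.06 TPM and CD3E was listed at 0. These 4 leukocyte markers, almost entirely CD68, summed to 69.2 to 75.7 TPM in siControl and 128 to 149 TPM in siMAD2L1. The 3 endothelial markers summed to 0.121 to 1.08 TPM in siControl and 0.08 to 0.154 TPM in siMAD2L1. Mitochondrially encoded transcripts took 15.2 to 15.3% of the TPM in siControl and 9.21 to 10.9% in siMAD2L1. The part of these differences in the tubulin results was not tested, and in bulk RNA fewer cells of a kind and less RNA per cell cannot be told apart.

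Alpha- and beta-tubulin form the heterodimer from which microtubules are built, including those of the mitotic spindle on which the spindle checkpoint acts. Human cells carry several genes, called isotypes, for each subunit. The encoded proteins are alike through most of their length and differ mainly in the acidic tail at the carboxyl end. TUBB, TUBB4B, TUBA1B and TUBA1C are expressed in most dividing cells, while TUBA1A, TUBB2A, TUBB2B and TUBB3 are best known from neurons, and TUBB3 also from tumours. Cells adjust tubulin mRNA to the amount of free tubulin dimer. When dimers are in excess, the factor TTC5 binds the first amino acids of a tubulin chain as it leaves the ribosome, and the mRNA is then degraded through SCAPER and the CCR4-NOT deadenylase.

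The starts of the coding sequences are shown because they encode those first residues. Each line gives the first 24 bases from GENCODE 29 (GRCh38), 5′ to 3′, with the first 12, which encode the first 4 residues including the initiator methionine, in capitals.

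TUBA1A: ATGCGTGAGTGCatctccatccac
TUBA1B: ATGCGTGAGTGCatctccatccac
TUBA1C: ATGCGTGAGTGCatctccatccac
TUBA4A: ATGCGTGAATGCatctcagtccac
TUBB: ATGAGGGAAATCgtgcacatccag
TUBB2A: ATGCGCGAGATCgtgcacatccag
TUBB2B: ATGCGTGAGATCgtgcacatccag
TUBB3: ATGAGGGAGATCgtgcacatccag
TUBB4B: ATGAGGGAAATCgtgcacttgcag
TUBB6: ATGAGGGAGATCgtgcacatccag

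TUBA1A, TUBA1B and TUBA1C shared all 24 bases. The alpha genes and the beta genes differ from each other in the last codon of the capitals. The bases in capitals also vary among the beta genes, but those of TUBB and TUBB4B are the same, as are those of TUBB3 and TUBB6.

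In siControl the tubulin mRNAs spanned a range from 43.1 ± 4.36 TPM (SD, n = 3) for TUBB2B to 1379 ± 39.98 TPM (SD, n = 3) for TUBB. TUBB, the main beta isotype of dividing cells, ranked 99 of the 14790 genes with a mean of at least 1 TPM. The order continued with TUBA1B (1161 ± 10.3 TPM), TUBA1C (824 ± 12.2 TPM), TUBB3 (809.8 ± 43.3 TPM), TUBB4B (682 ± 10.6 TPM) and TUBA1A (580.4 ± 52.9 TPM; SD, n = 3 each). A step down led to TUBB6 (189 ± 4.75 TPM), TUBB2A (112 ± 1.33 TPM) and TUBA4A (100.4 ± 12.7 TPM; SD, n = 3 each). TUBA1C and TUBB3 were the only neighbours in this order whose siControl libraries overlapped in range. TUBB3, which is best known from neurons, was thus the second most abundant of the 6 beta mRNAs in this liver tumour line. In siMAD2L1 the order was the same except that TUBA1A, at 833 ± 66.4 TPM, stood above TUBB4B, at 767 ± 93.2 TPM (SD, n = 3 each), and the ranges of TUBA1C, TUBB3, TUBA1A and TUBB4B each overlapped that of the next.

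**Figure D1:**
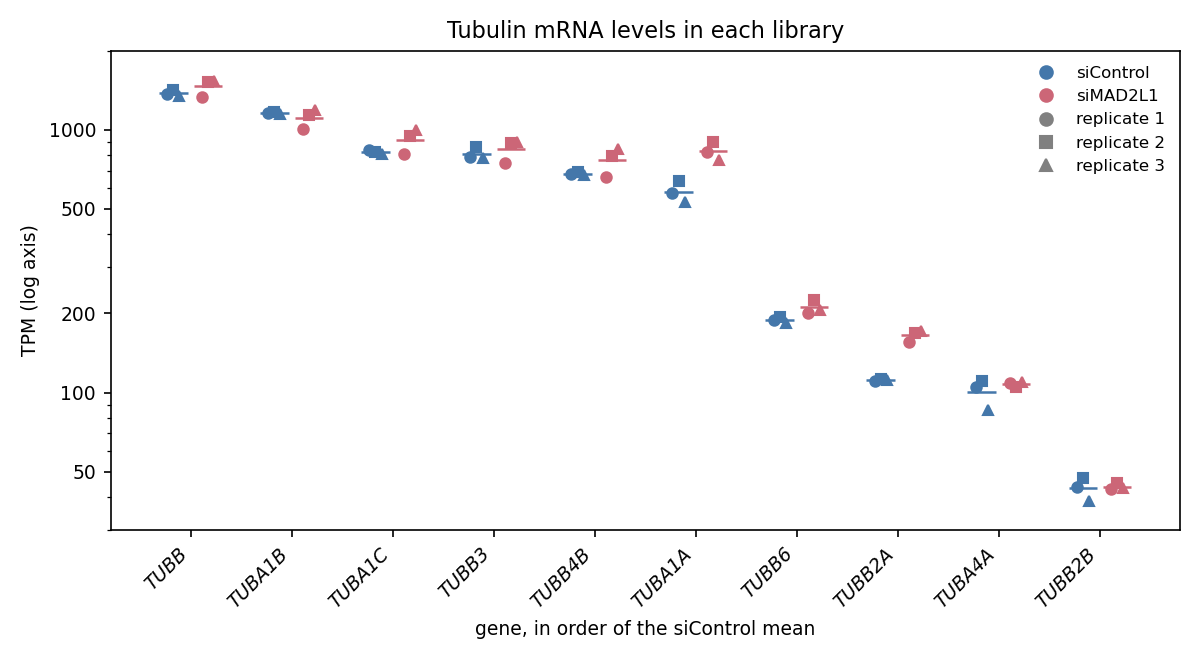
TPM (log axis) of the 10 tubulin genes in each library, with siControl in blue, siMAD2L1 in red, a marker shape per replicate and a line at each group mean. The siMAD2L1 points lie above all siControl points for TUBA1A, TUBB2A and, by a smaller margin, TUBB6. Replicate 1 of siMAD2L1 is the lowest red point for every gene except TUBA1A and TUBA4A.

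The comparison of siMAD2L1 with siControl asks which of these mRNAs differ when the checkpoint gene is knocked down. Of the 10 genes, 2 rose (adjusted p under 0.05, limma), namely TUBB2A and TUBA1A, and 0 fell, while 8 did not pass. Over all genes tested, 3.55% rose and 6.23% fell, 9.78% in either direction (525 higher and 921 lower). That split depended on scaling, at 648 higher and 715 lower with upper-quartile scaling, 688 and 704 with quantile normalization, 777 and 625 after correction for transcript length and 449 and 1234 when the mitochondrial and 20 highest genes were kept out of the scale, and each of these left the same number of tubulins called. The median log2 fold change of the 10 was 0.13, against -0.08 over all genes tested. Both medians depend on scaling. That of all genes was -0.005 with quantile normalization and -0.129 when the mitochondrial and 20 highest genes were kept out of the scale. With a single library left out, the number that rose was 1 without siControl replicate 1 or 3, 4 without siMAD2L1 replicate 1, and otherwise 2.

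TUBB2A, a class II beta isotype, measured 110, 113 and 112 TPM in siControl and 156, 168 and 171 TPM in siMAD2L1. All 3 knockdown libraries lay far above the narrow siControl range. The means were 112 ± 1.33 and 165 ± 8.08 TPM (SD, n = 3 each), a 1.48-fold difference. The log2 fold change was 0.56 (SE 0.0710, 95% interval 0.39 to 0.72, limma adjusted p = 0.00465), and the exact two-sided permutation p was 0.1, the smallest that 3 libraries against 3 allow. TUBB2A passed in each alternative setting that kept at least 2 libraries in a group and TUBB2A as its own row, at log2 fold changes of 0.51 to 0.66. With siMAD2L1 replicate 1 alone its value was 0.48, where the lone library is assumed to vary like the siControl libraries.

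TUBA1A, the alpha isotype that predominates in developing neurons, measured 574, 636 and 531 TPM in siControl and 827, 902 and 770.1 TPM in siMAD2L1. The groups did not overlap, and the lowest knockdown library stood above the highest control. The log2 fold change was 0.52 (SE 0.0911, 95% interval 0.31 to 0.73, limma adjusted p = 0.0142), a 1.44-fold difference of mean TPM, with an exact permutation p of 0.1. TUBA1A missed the threshold when siControl replicate 1 (adjusted p = 0.0766) or replicate 3 (0.0671) was left out. The 6 neuronal markers, mostly SYP and MAP2, summed to 5.98 to 7.52 TPM in siControl and 5.98 to 8.32 TPM in siMAD2L1. These ranges overlapped, but so low a sum says little about neuronal genes. Any link of such genes to the rise of TUBA1A and TUBB2A was not tested.

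**Figure D2:**
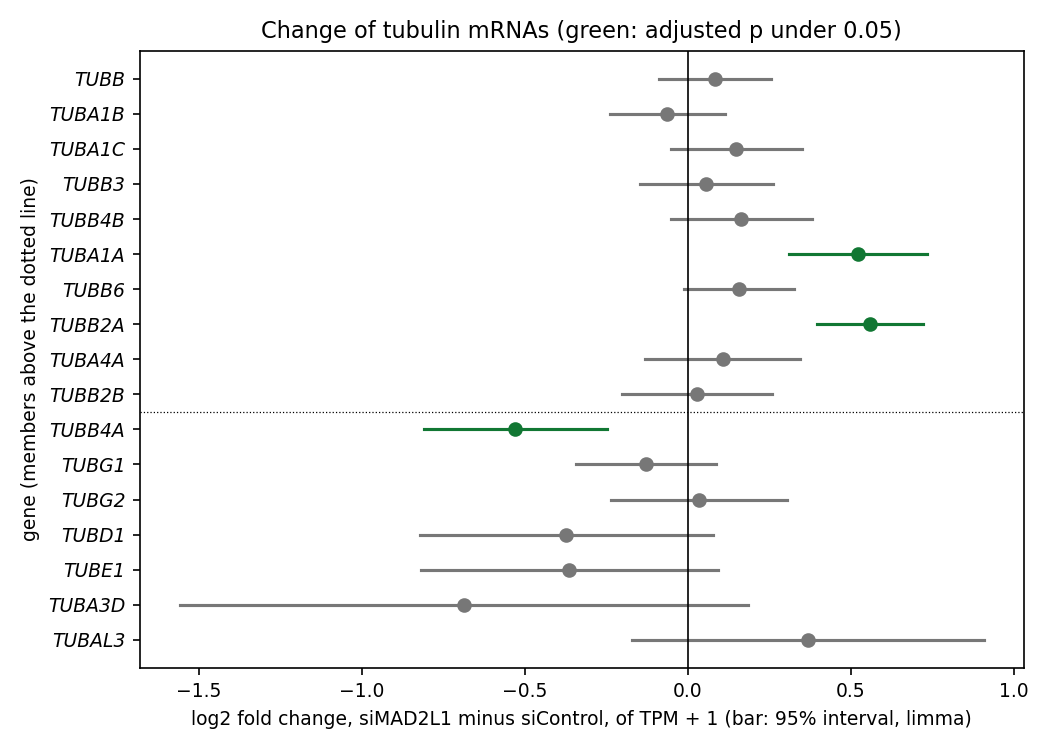
Log2 fold change of TPM + 1 with its 95% interval from limma for the 10 members (above the dotted line) and for 7 other tubulin genes, green where the adjusted p was under 0.05. TUBA1A (0.52) and TUBB2A (0.56) lie to the right of 0, TUBB4A (-0.53) to the left, and the intervals of the others include 0.

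The class V beta isotype TUBB6 measured 189, 193 and 184 TPM in siControl and 201, 226 and 206 TPM in siMAD2L1. Its groups did not overlap either, but the difference was small (log2 fold change 0.16, 95% interval -0.01 to 0.33, limma adjusted p = 0.217). The groups were thus apart for 3 of the 10 genes, against 32.8% of all genes tested.

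The other 7 had intervals that included 0. TUBB measured 1369, 1423 and 1345 TPM in siControl and 1335, 1524 and 1529 TPM in siMAD2L1 (log2 fold change 0.08, interval -0.09 to 0.25). Replicate 1 of the knockdown lay below the controls, and replicates 2 and 3 lay above them. The same arrangement held for TUBA1C, at 837, 824 and 813 TPM in siControl and 808, 943 and 1001 TPM in siMAD2L1 (0.15, interval -0.05 to 0.35). It held also for TUBB4B, at 679, 693 and 673 TPM in siControl and 663, 798 and 842 TPM in siMAD2L1 (0.16, interval -0.05 to 0.38). It held again for TUBB3, at 788, 859.7 and 782 TPM in siControl and 748, 888 and 896 TPM in siMAD2L1 (0.06, interval -0.15 to 0.26). In a fit without siMAD2L1 replicate 1, TUBA1C (0.24, limma adjusted p = 0.0338) and TUBB4B (0.27, adjusted p = 0.0237) passed. In siMAD2L1 replicate 1 alone against siControl, the log2 fold changes were -0.03 for TUBA1C, -0.04 for TUBB4B, -0.05 for TUBB and -0.11 for TUBB3, and with quantile normalization those of TUBB and TUBB3 were -0.03 and -0.05.

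TUBA1B, the most abundant alpha mRNA, measured 1156, 1173 and 1154 TPM in siControl and 1007, 1141 and 1191 TPM in siMAD2L1. It had the only negative estimate of the 10 (log2 fold change -0.06, interval -0.24 to 0.11, adjusted p = 0.642), and this was 0.02 after correction for transcript length or with library weights and 0.01 without siMAD2L1 replicate 1. TUBA4A, an alpha isotype whose gene does not encode the terminal tyrosine that other alpha-tubulins carry, measured 105, 110.2 and 86.1 TPM against 109, 105 and 109 TPM (0.11, interval -0.13 to 0.34). TUBB2B, the close relative of TUBB2A, measured 43.7, 47.2 and 38.5 TPM against 43.0, 45.3 and 43.3 TPM (0.03, interval -0.20 to 0.26). The knockdown libraries of TUBB2B fell inside the siControl range, and its estimate was -0.02 when the mitochondrial and 20 highest genes were kept out of the scale and -0.05 without siControl replicate 3.

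Summed over the 4 alpha members, mRNA amounted to 2672, 2743 and 2583 TPM in siControl and 2751, 3092 and 3072 TPM in siMAD2L1. The 6 beta members summed to 3179, 3329 and 3133 TPM in siControl and 3145, 3649 and 3687 TPM in siMAD2L1. The alpha sums did not overlap between the groups, and the beta sum of siMAD2L1 replicate 1 lay within the siControl range. The log2 ratio, siMAD2L1 over siControl, was 0.155 for the alpha sum and 0.117 for the beta sum. Both depended on scaling, at 0.106 and 0.069 with the mitochondrial and 20 highest genes kept out of the scale. They were 0.055 and 0.012 with quantile normalization, and 0.205 and 0.167 with upper-quartile scaling. No p is given for these sums, because the members were chosen with earlier results known. All 10 together took 0.588% ± 0.0180 of the TPM in siControl and 0.647% ± 0.0493 in siMAD2L1 (SD, n = 3 each). The beta mRNA amounted to 1.19, 1.21 and 1.21 times the alpha mRNA in siControl and 1.14, 1.18 and 1.2 times in siMAD2L1, with overlapping ranges.

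Within the alpha mRNA, TUBA1A took 21.5, 23.2 and 20.6% in siControl and 30.1, 29.2 and 25.1% in siMAD2L1. TUBA1B took 43.3, 42.8 and 44.7% in siControl and 36.6, 36.9 and 38.8% in siMAD2L1. TUBA1A thus held a larger part and TUBA1B a smaller part of the alpha mRNA in every knockdown library than in any control. TUBA1C held 30.9% ± 0.786 and 30.8% ± 1.62, and TUBA4A 3.76% ± 0.373 and 3.63% ± 0.294 (siControl, then siMAD2L1; SD, n = 3 each). Within the beta mRNA, TUBB2A took 3.47, 3.39 and 3.56% in siControl and 4.96, 4.60 and 4.65% in siMAD2L1. TUBB held 42.9% ± 0.158 and 41.9% ± 0.501, and TUBB3 25.2% ± 0.554 and 24.1% ± 0.309, both with no overlap and the lower values in siMAD2L1 (SD, n = 3 each). The shares of TUBB4B, TUBB6 and TUBB2B overlapped between the groups. A share in a library does not change when all values of that library are multiplied by a common factor. Quantile normalization and the correction for transcript length shift genes unequally and can change it.

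**Figure D3:**
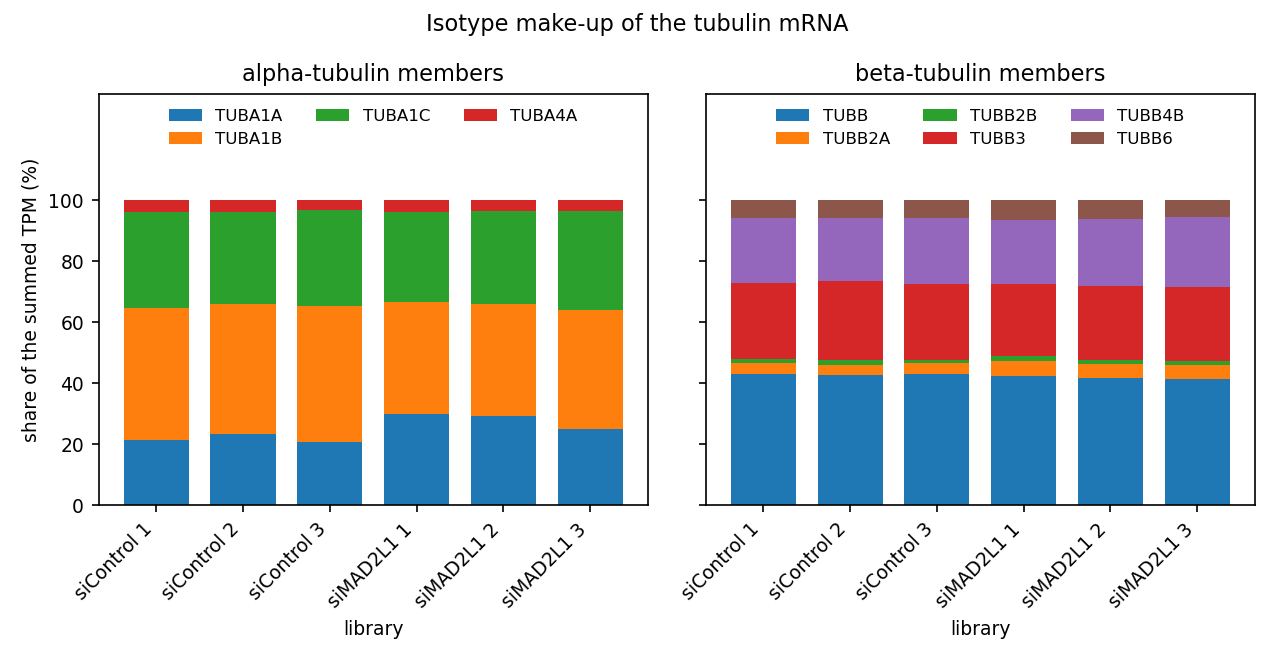
Share (%) of the summed TPM of the 4 alpha and the 6 beta members held by each gene, 1 bar per library. The TUBA1A segment takes 20.6 to 23.2% in siControl and 25.1 to 30.1% in siMAD2L1, and the TUBB2A segment 3.39 to 3.56% and 4.60 to 4.96%.

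Ratios between close relatives were formed within each library for 3 pairs, chosen after their values were seen. The ratio of TUBA1A to TUBA1B was 0.496, 0.543 and 0.461 in siControl and 0.821, 0.791 and 0.647 in siMAD2L1. The ratio of TUBB2A to TUBB2B was 2.52, 2.40 and 2.90 in siControl and 3.63, 3.70 and 3.96 in siMAD2L1. In both pairs every knockdown library had a higher ratio than every control. The ratio of TUBB4A, a class IV beta isotype outside the 10 members, to TUBB4B was 0.0589, 0.0598 and 0.0486 in siControl and 0.0378, 0.0306 and 0.0338 in siMAD2L1, lower in each knockdown library. No p is given for these ratios, since the pairs were chosen on their values.

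**Figure D4:**
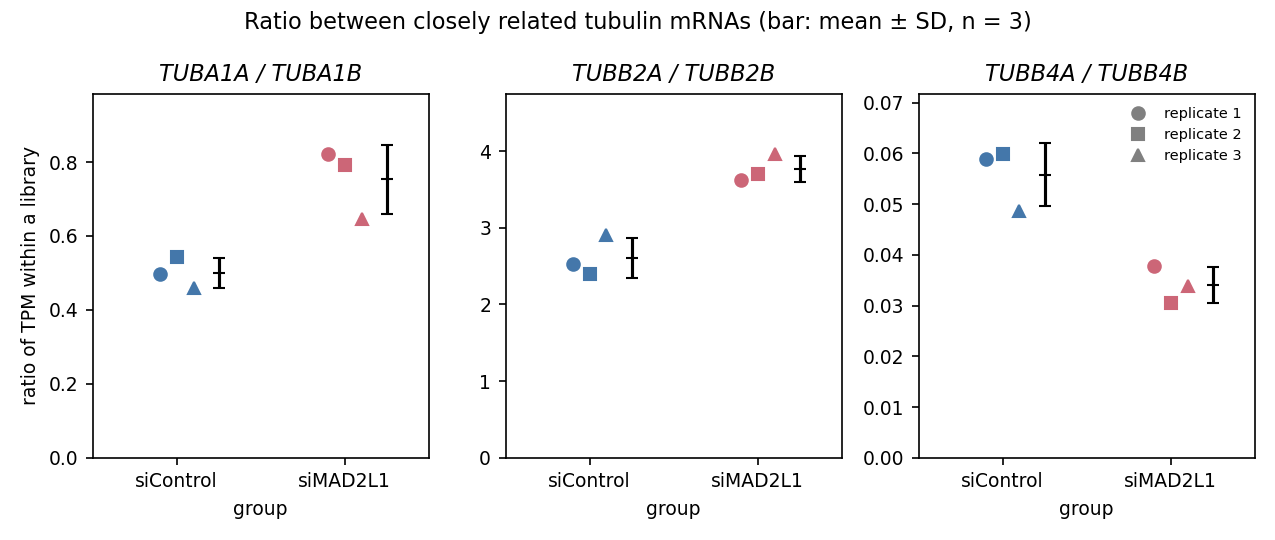
Ratio of TPM within a library for 3 pairs of related tubulin genes, with points by replicate and bars for the mean and SD (n = 3). The TUBA1A to TUBA1B and TUBB2A to TUBB2B ratios are higher in all siMAD2L1 libraries (0.753 against 0.4998 and 3.77 against 2.61 in the mean), and the TUBB4A to TUBB4B ratio is lower.

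The isotype genes are close copies, which bears on how reads can be assigned to them. The coding sequences of TUBB2A and TUBB2B were identical at 98.1% of 1338 aligned bases, those of TUBA1A and TUBA1B at 97.2% of 1356, and those of TUBA1A and TUBA1C at 96.3% of 1350. Of all windows of 100 bases in the coding sequence of TUBB2A, 65.7% also occurred in a TUBB2B transcript, and 22.4% of those of TUBA1A occurred in TUBA1B. With windows of 150 bases these shares were 60.1% and 8.78%, and with windows of 50 bases 72.4% and 46.6%. Counting any other tubulin gene, 78.5% of the 50-base windows of TUBB2A and 58.6% of those of TUBA1A were shared. TUBB6 shared no window of 100 bases with another tubulin gene. No source used here gives the read length or the treatment of reads that map to several places, so the split of TPM within the TUBA1 and TUBB2 groups is uncertain. Summed, TUBB2A and TUBB2B rose (log2 fold change 0.43, limma adjusted p = 0.0108), while TUBA1A, TUBA1B and TUBA1C summed did not pass (0.16, adjusted p = 0.209). TUBB2A was the larger part of its sum in every library, so the p of that sum largely repeats the TUBB2A call.

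The ends of the TUBB2A and TUBB2B coding sequences show how alike this pair is in the part that encodes the isotype tail. Each line gives the last 60 bases of the GENCODE 29 coding sequence with the stop codon, in lower case, with capitals at positions where the pair differs.

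TUBB2A: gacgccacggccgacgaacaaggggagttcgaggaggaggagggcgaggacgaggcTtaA
TUBB2B: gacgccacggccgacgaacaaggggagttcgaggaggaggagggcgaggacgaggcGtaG

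TUBB2A and TUBB2B differ at 2 of these 60 bases.

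By position (GENCODE 29, GRCh38), TUBA1B (chromosome 12, 49127782 to 49131397), TUBA1A (49184796 to 49189324) and TUBA1C (49188736 to 49274603) lie side by side, TUBA1B and TUBA1A on the minus strand and TUBA1C on the plus strand. The 5′ ends of TUBA1A and TUBA1C overlap, and without a stated strand setting reads from the overlap cannot be told apart. TUBB2A (chromosome 6, 3153669 to 3157526, minus strand) and TUBB2B (3224261 to 3231730, minus strand) are neighbours, and TUBB lies elsewhere on chromosome 6 (30720201 to 30725426, plus strand). TUBB3 is on chromosome 16 (89921392 to 89938761, plus strand) within a readthrough gene that was listed at no more than 0.612 TPM in any library. TUBA4A is on chromosome 2 (219249711 to 219278170, minus strand), TUBB4B on chromosome 9 (137241213 to 137243707, plus strand) and TUBB6 on chromosome 18 (12307669 to 12344320, plus strand).

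The regions upstream of the genes that rose are shown beside those of their close relatives, because the members of each pair encode nearly the same protein but differ here. Each line gives the 250 bases before the RefSeq start (GRCh38.p14), 5′ to 3′ on the gene's own strand. Capitals mark matches on either strand to CCAAT (read by NF-Y), TATAAA (the TATA box) and GGGCGG (the GC box read by SP1); matches may overlap. The windows are chr12:49189081-49189330 for TUBA1A, chr12:49131396-49131645 for TUBA1B, chr6:3157545-3157794 for TUBB2A and chr6:3227654-3227903 for TUBB2B, all on the minus strand.

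TUBA1A: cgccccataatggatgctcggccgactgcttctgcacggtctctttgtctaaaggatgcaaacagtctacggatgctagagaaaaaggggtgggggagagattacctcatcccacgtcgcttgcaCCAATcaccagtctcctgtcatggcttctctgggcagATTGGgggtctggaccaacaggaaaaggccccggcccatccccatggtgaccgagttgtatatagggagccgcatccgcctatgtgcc
TUBA1B: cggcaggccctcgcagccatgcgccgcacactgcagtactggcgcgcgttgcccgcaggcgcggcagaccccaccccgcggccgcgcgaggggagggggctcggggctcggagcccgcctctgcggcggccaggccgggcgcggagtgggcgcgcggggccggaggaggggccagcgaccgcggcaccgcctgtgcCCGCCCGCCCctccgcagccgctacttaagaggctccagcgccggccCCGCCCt
TUBB2A: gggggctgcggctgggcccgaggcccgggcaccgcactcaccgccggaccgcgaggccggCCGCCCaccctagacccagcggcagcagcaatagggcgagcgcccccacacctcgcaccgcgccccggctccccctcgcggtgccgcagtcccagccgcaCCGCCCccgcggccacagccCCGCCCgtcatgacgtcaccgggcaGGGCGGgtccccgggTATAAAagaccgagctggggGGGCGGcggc
TUBB2B: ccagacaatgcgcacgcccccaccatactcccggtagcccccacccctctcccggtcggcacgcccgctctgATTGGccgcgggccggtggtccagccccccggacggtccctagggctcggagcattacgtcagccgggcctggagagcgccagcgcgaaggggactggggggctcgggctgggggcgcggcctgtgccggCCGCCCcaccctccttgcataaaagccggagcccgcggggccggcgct

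TUBA1A held CCAAT and no GGGCGG, and TUBA1B held GGGCGG and no CCAAT. TUBB2A held TATAAA and GGGCGG but no CCAAT, and TUBB2B held CCAAT and GGGCGG but no TATAAA. By exact match in these windows, the 2 genes that rose thus shared none of these 3 motifs. Whether the motifs bear on the rise was not tested. Of the 10 genes, all matched by symbol to 15 RefSeq start windows, 7 had CCAAT in at least 1 window, 8 had GGGCGG and 1 had TATAAA. By window these were 9, 9 and 1 of 15, beside 32%, 42.6% and 10.7% of all 35116 windows of the same length. TTTGAA, one form of the cell-cycle homology region, occurred in 3 of the 15 windows (TUBA1C and TUBB4B) and in 13.3% of all. TTCGAA occurred in 1 (TUBB3, 1.2% of all), CACGTG in 2 (TUBA1C and TUBB, 6.30% of all) and TGANTCA in 1 (TUBB3, 6.60% of all), each read on both strands.

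Besides the members, 61 rows carry a TUBA or TUBB symbol, of which 41 were listed at 0 in all libraries and 4 had a mean of at least 1 TPM. TUBB4A, which like TUBB2A and TUBB3 is best known from neural tissue, measured 40.02, 41.5 and 32.7 TPM in siControl and 25.05, 24.4 and 28.5 TPM in siMAD2L1. It fell in each knockdown library (log2 fold change -0.53, SE 0.121, limma adjusted p = 0.0342). TUBB4A missed the threshold when siControl replicate 1 (0.142) or 2 (0.119) or siMAD2L1 replicate 2 (0.0917) or 3 (0.0642) was left out. It also missed after correction for transcript length (0.0594), with the replicate number as a block (0.0787), with no filter (0.0803) and without a variance trend (0.0666). The alpha-tubulin pseudogene TUBA5P measured 4.25, 4.18 and 4.61 TPM in siControl and 2.02, 1.02 and 1.59 TPM in siMAD2L1 (-1.09, adjusted p = 0.0184). Its call was lost without siControl replicate 1, 2 or 3 or siMAD2L1 replicate 3 (adjusted p of 0.0813, 0.0685, 0.0856 and 0.0581). The call was also lost with no filter (0.0683), and pseudogenes share sequence with the expressed genes. TUBA3D (-0.69, adjusted p = 0.294) and TUBAL3 (0.37, adjusted p = 0.364) lay near the filter, with siControl means of 1.78 and 1.46 TPM. Of the gamma-tubulins, which nucleate microtubules, TUBG1 had a log2 fold change of -0.13 (adjusted p = 0.428) and TUBG2 of 0.03 (adjusted p = 0.888). TUBD1 and TUBE1, the delta- and epsilon-tubulins of centrioles, had -0.37 and -0.36 (adjusted p = 0.269 and 0.287).

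**Figure D5:**
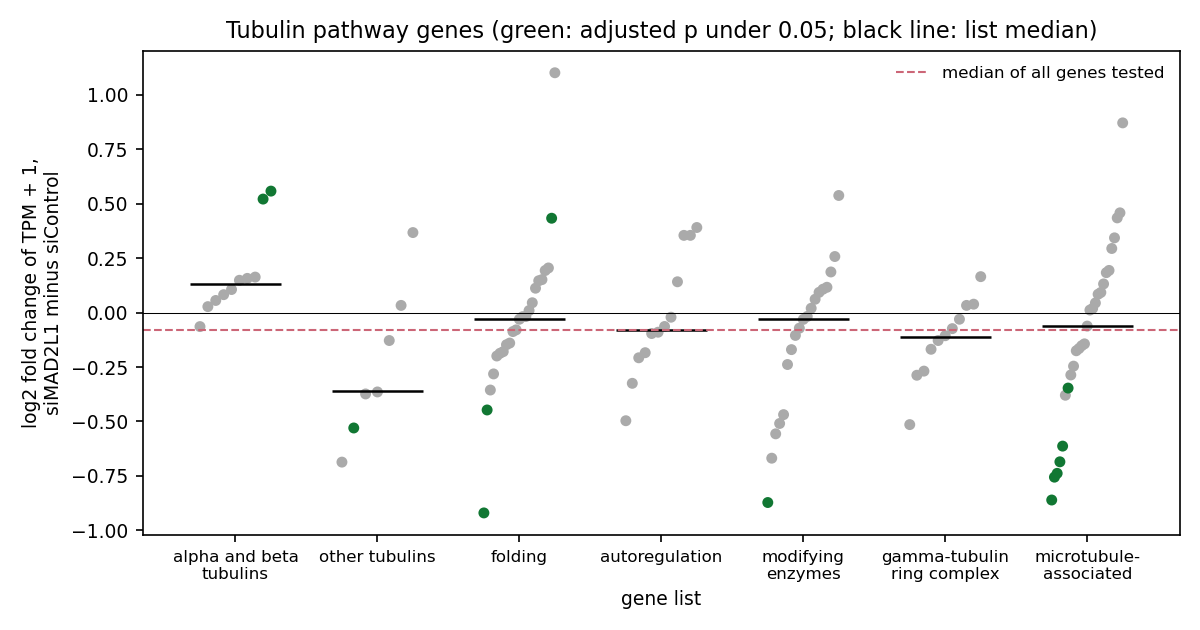
Log2 fold change of TPM + 1 for each tested gene of the tubulin lists, green where the adjusted p was under 0.05, with a black line at each list median and a dashed line at the median of all genes tested (-0.08). The alpha and beta tubulins have a median of 0.13 and both called genes above 0, while all 6 called genes among the microtubule-associated proteins lie below 0.

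The other genes of the tubulin pathway were taken from fixed lists. Folding of new tubulin needs prefoldin, the ring-shaped chaperonin CCT and the cofactors TBCA to TBCE. Of 22 such genes (23 rows, since TBCE has 2), 1 rose and 2 fell, beside 9.78% called in either direction over all genes tested, with a median log2 fold change of -0.03. That share of called genes is near the background. The prefoldin subunit PFDN2 rose from 149 ± 10.5 to 201 ± 2.82 TPM (SD, n = 3 each; 0.43, limma adjusted p = 0.0142), while PFDN6 fell from 92.8 ± 6.40 to 68.0 ± 8.55 TPM (SD, n = 3 each; -0.45, adjusted p = 0.0406). The chaperonin subunit CCT6A fell from 152 ± 14.4 to 81.4 ± 22.1 TPM (SD, n = 3 each; -0.92, adjusted p = 0.0189). All 3 lost their calls without siControl replicate 1 or 3 or siMAD2L1 replicate 3, with adjusted p up to 0.0643 for PFDN2, 0.147 for PFDN6 and 0.0908 for CCT6A, and CCT6A and PFDN6 also without siControl replicate 2 (0.0713 and 0.0899). PFDN6 also missed the threshold with upper-quartile scaling (0.0934), quantile normalization (0.0550), correction for transcript length (0.0997) and the replicate block (0.0852). With no filter the adjusted p was 0.0990 for PFDN6 and 0.0737 for CCT6A. Without a variance trend none of the 3 passed (0.0899 for PFDN6, 0.0509 for CCT6A and 0.0586 for PFDN2).

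Of 12 autoregulation genes, TTC5, SCAPER and subunits of CCR4-NOT, 0 passed in limma (median -0.08). Over all genes tested 9.78% were called in either direction, and a list of 12 is too short to tell 0 from that share. The scaffold CNOT1 measured 65.4, 76.9 and 65.0 TPM in siControl and 48.2, 61.4 and 38.6 TPM in siMAD2L1 (-0.50, adjusted p = 0.0980), and it passed without siMAD2L1 replicate 2 (-0.66, adjusted p = 0.0409). The deadenylase CNOT7 had a log2 fold change of 0.14 (adjusted p = 0.526). TTC5 and SCAPER, singled out after their values were seen, had log2 fold changes of -0.10 (adjusted p = 0.784) and 0.39 (adjusted p = 0.397).

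Of 19 tested enzymes and cofactors that modify tubulin, 1 fell and 0 rose (median -0.03), near the 6.23% that were lower over all genes tested. It was SVBP, the partner that the vasohibin enzymes need to remove the terminal tyrosine of alpha-tubulin, at 14.6, 14.8 and 14.1 TPM in siControl and 7.95, 8.41 and 6.20 TPM in siMAD2L1 (-0.87, limma adjusted p = 0.0106). Without siControl replicate 1, 2 or 3 its adjusted p was 0.0644, 0.0549 and 0.0572. Of 11 genes of the gamma-tubulin ring complex 0 passed (median -0.11). Beside the 9.78% called in either direction over all genes tested, this list too is too short to tell 0 from that share. The most abundant, MZT2B and MZT2A, had log2 fold changes of 0.04 and 0.17 (adjusted p = 0.856 and 0.317).

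Of 27 tested microtubule-associated, tip-binding and severing proteins, 6 fell and 0 rose, beside 6.23% lower and 3.55% higher over all genes tested (median -0.06). TACC3, which stabilizes spindle fibres, fell from 65.6 ± 2.51 to 35.7 ± 2.42 TPM (SD, n = 3 each; -0.86, limma adjusted p = 0.00210). PRC1, which crosslinks microtubules in the spindle midzone, fell from 76.9 ± 4.92 to 45.1 ± 3.02 TPM (SD, n = 3 each; -0.76, adjusted p = 0.00388). TPX2, a spindle assembly factor, fell by 0.69 on the log2 scale (adjusted p = 0.00918), and its call was lost without siControl replicate 3 (adjusted p = 0.0546). STMN3 and STMN1, stathmins that bind free tubulin dimers, also fell (-0.61 and -0.35, adjusted p = 0.00818 and 0.0168); they lie outside the rule for named genes and were named after their values were seen.

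The genes whose level followed the summed TPM of the 10 tubulins most closely over the 6 libraries, out of 7405 genes with a mean of at least 10 TPM, were HSF1 (Pearson r = 0.999), OSGIN1 (0.992), HRAS (0.988), CNN2 (0.986) and NSUN5 (0.986). HSF1, the heat shock transcription factor, measured 118, 126 and 113 TPM in siControl and 119, 146 and 145 TPM in siMAD2L1. Like the tubulin sum, it was at the siControl level in siMAD2L1 replicate 1 and above it in replicates 2 and 3. These values are descriptions over 6 libraries of 2 groups that share their scaling, and they were picked as the highest of many.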

How the data were processed

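RNA sequencing of 3 siControl and 3 siMAD2L1 libraries of SNU449 cells was deposited as 1 table of TPM per gene. The submitters' processing notes name fastp, HISAT2, DESeq2 1.16.1 and the build hg38. No source used here gives the counting tool, its strand setting or the read length. The authors' TPM were transformed to log2(TPM + 1), which understates changes of low genes. The 14790 genes with a mean of at least 1 TPM were fitted with limma 3.58.1 (R 4.3.3, mean-variance trend, Benjamini-Hochberg adjustment, threshold 0.05), and all 10 tubulins passed the filter. The script was tested on simulated data, with changes placed in genes above the median level. It recovered 23.6% of log2 changes of 0.5 and 76.4% of log2 changes of 1, with 4.25% false among its calls. Sums, shares and ratios were formed from TPM. Sequences came from GENCODE 29 and, for promoters, from RefSeq, and were compared with Biopython 1.88. Plots used matplotlib 3.10.9.

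The tubulins and gene lists were chosen with earlier results of these data known. Named genes were the tubulins, MAD2L1 and MAD2L2, tubulin pseudogenes with a mean of at least 1 TPM, up to 4 called genes of each list with the greatest change (or the 2 most abundant where none was called), and the 5 genes correlating best with the tubulin sum. Alternatives covered the pseudocount, filter, scaling, variance model, replicate block, threshold and leaving out each library. Of the genes that the rule names, 1 is counted with its list but not reported here.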

Additional observations from a re-analysis of the deposited data

How the results depend on the processing

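TUBB2A kept its call and direction in the alternatives run, and TUBA1A kept its direction. The adjusted p of TUBA1A was 0.0528 with no filter, 0.0555 without a variance trend and 0.0601 with siMAD2L1 replicate 1 alone against siControl, a fit that assumes the lone library varies like siControl. Over all genes, 1446 were called, against 727 with no filter, 952 without a trend, 4860 with library weights, 868 with the replicate block, 359 at an adjusted p under 0.01, and 326 to 2422 with a library left out. The 2 tubulins called higher became 1 with no filter, without a trend, with siMAD2L1 replicate 1 alone and at an adjusted p under 0.01, 5 with library weights, and 1 to 4 with a library left out. The log2 ratio of the beta sum was 0.117, and -0.031 with siMAD2L1 replicate 1 alone.

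Estimates near 0 changed sign, and the cause was not tested. With quantile normalization they were -0.03 for TUBB, -0.0506 for TUBB3 and -0.10 for MZT2B. With the mitochondrial and 20 highest genes kept out of the scale, they were -0.0199 for TUBB2B, -0.013 for TUBG2 and -0.0096 for MZT2B. Correction for transcript length gave 0.0237 for TUBA1B and 0.0233 for MAD2L2, and library weights gave 0.02 for TUBA1B. With a library left out, the ranges were -0.1148 to 0.0063 for TUBA1B, -0.0498 to 0.093 for TUBB2B, -0.0473 to 0.0956 for TUBG2, -0.1467 to 0.0121 for MAD2L2 and -0.0432 to 0.1282 for MZT2B. With siMAD2L1 replicate 1 alone they were -0.0281 for TUBA1C, -0.0465 for TUBB, -0.0009 for TUBB2B, -0.11 for TUBB3, -0.0405 for TUBB4B, -0.056 for TUBG2, -0.14 for MZT2B and -0.0144 for MZT2A. The sum of TUBA1A, TUBA1B and TUBA1C, a different quantity from TUBA1B alone, gave 0.16.

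Same-numbered libraries were not paired in the main fit. The correlations of their deviations were 0.019, 0.009 and 0.063. For siMAD2L1 replicates 2 and 3 the best correlation was with the siControl library of the same number. For siMAD2L1 replicate 1 it was with siControl replicate 2 (0.034). Correlations this near 0 cannot settle whether the libraries are paired. With the replicate block both TUBB2A and TUBA1A remained called. TPM carry no depth, so counting error could not be given.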
